A study of Mus musculus with 16 samples.

Results

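The chemokine ligands described here are 10 genes, Ccl2, Ccl3, Ccl4, Ccl5, Ccl6, Ccl7, Ccl9, Cxcl2, Cxcl10 and Cxcl16, taken by gene symbol from the 55573 gene records of one RNA-seq count table. Each symbol matched 1 record. Of these, 9 passed the filter on low counts that left 13107 genes for testing, and Ccl7 did not. RNA was measured in 16 libraries of RAW264.7 cells (TIB-71), a mouse macrophage-like line, with 4 libraries each of ORP5/8 KD, ATP11A/C KD, CDC50A KD and Parental cells. No stimulus is named, and cells of all groups were collected 1 day after plating. The title of the study places the work in phosphatidylserine clustering and LC3-associated phagocytosis.

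ORP5 and ORP8 exchange lipids at contacts of the endoplasmic reticulum with the plasma membrane and deliver phosphatidylserine, ATP11A is a flippase that moves it to the inner leaflet, and CDC50A is the subunit that flippase needs. The library names of the knockdown (KD) groups start with the letters sh, with no further detail of the construct. Parental cells name no construct, and a non-targeting control was not analysed here, so whatever the knockdown procedure itself does cannot be told apart from loss of the target. The labels do not say whether a KD group is 1 clone or a pool, nor whether the 4 libraries of a group came from separate cultures. A p-value therefore sets a difference between groups only against the scatter of these libraries, and that scatter could be technical. Osbpl8, the gene of ORP8, stood at 29.4% of its Parental level in ORP5/8 KD cells, but also at 37.6% in ATP11A/C KD cells and 34.5% in CDC50A KD cells. Osbpl5, the gene of ORP5, was near 0 in every group, at 0.176 CPM in ORP5/8 KD and 0.140 CPM in Parental cells. In ATP11A/C KD cells Atp11a stood at 34.9% of Parental, and in CDC50A KD cells Tmem30a, the gene of CDC50A, stood at 78.6%. Total counts ran from 24020891 to 41543050 per library. The mitochondrial share of counts ran from 1.37% to 1.78% in the KD libraries and from 1.08% to 1.26% in the Parental libraries. Macrophage markers were abundant, and their levels are set beside the ligands further on.

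Chemokines are small secreted proteins that bind G protein-coupled receptors on leukocytes and guide their movement along a gradient. The family is named by the spacing of its first cysteines, adjacent in CC ligands and separated by another residue in CXC ligands. Macrophages are a major source of them, and many chemokine genes are switched on by NF-kB and AP-1 after pattern-recognition signalling or by IRF factors after interferon.

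Promoter sequence was matched for 5 of the 10 members (Cxcl2, Cxcl10, Ccl9, Ccl6 and Ccl3) in RefSeq on GRCm38.p6, and 4 are shown, as 250 bases ending at the base before the RefSeq start, because they differ in the motifs of the factors named above. Cxcl10 and Cxcl2 represent the CXC ligands and Ccl9 and Ccl3 the CC ligands. Windows were chr5:92348890-92349139, minus strand for Cxcl10, chr5:90903649-90903898, plus strand for Cxcl2, chr11:83578637-83578886, minus strand for Ccl9 and chr11:83649379-83649628, minus strand for Ccl3. Capitals mark matches on either strand to the kB consensus of NF-kB, to GAAA, any 2 bases and GAAA (the core of the interferon-stimulated response element) and to TGANTCA, the AP-1 site.
Cxcl10: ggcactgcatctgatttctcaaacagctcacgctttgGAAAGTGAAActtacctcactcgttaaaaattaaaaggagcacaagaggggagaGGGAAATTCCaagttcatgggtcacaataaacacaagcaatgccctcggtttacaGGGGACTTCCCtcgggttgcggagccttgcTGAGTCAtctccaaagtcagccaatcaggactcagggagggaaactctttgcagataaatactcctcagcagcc
Cxcl2: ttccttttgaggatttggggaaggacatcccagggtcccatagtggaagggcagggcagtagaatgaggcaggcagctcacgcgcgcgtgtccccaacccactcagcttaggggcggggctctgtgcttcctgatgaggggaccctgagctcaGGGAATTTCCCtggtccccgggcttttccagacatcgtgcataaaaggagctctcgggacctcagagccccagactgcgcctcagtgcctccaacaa
Ccl9: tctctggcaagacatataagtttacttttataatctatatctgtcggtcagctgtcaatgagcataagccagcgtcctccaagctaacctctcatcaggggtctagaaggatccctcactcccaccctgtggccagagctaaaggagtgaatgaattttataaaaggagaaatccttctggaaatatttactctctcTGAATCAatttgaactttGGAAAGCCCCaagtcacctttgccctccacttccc
Ccl3: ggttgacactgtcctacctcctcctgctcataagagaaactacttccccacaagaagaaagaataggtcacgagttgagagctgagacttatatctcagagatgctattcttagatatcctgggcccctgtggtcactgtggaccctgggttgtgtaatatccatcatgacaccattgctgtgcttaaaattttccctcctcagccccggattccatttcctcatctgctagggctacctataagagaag
The Cxcl10 window held 3 kB matches, of which a pair overlapped, with 1 match to the interferon element and 1 to TGANTCA. Cxcl2 held 2 overlapping kB matches, and Ccl9 held 1 kB match and 1 TGANTCA. That Ccl9 match reads TGAATCA, so its middle base is not that of the AP-1 site. In Ccl3, and in Ccl6 (not shown), none of these letters was found, which says nothing of the factors themselves. Of 32851 mouse promoter windows of the same length, 7.25% held a kB match, 2.98% the interferon element and 6.75% TGANTCA.

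The mRNA of most of these members was lower in each KD group than in Parental cells. The members were chosen with earlier results of these data known, so the shares of all genes are no independent yardstick for their counts. Of the 9 tested members, 8 were lower and 0 higher in ORP5/8 KD against Parental cells, where 46.2% of all tested genes were called, 24.3% lower and 22.0% higher. In ATP11A/C KD against Parental cells 8 were lower and 0 higher, beside 37.6% of all genes called, 20.2% lower and 17.4% higher. In CDC50A KD against Parental cells all 9 were lower, beside 50.4% of all genes called, 26.1% lower and 24.3% higher. The threshold for a call was an adjusted p of 0.05 in edgeR's quasi-likelihood test, with adjustment over all tested genes. The 3 comparisons share the Parental libraries and so are not independent of each other.

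The falls were large as well as frequent. At least 2-fold lower levels were called for 6 members in ORP5/8 KD, 4 in ATP11A/C KD cells and 6 in CDC50A KD cells, where 4.21%, 3.55% and 4.80% of all tested genes were called and lower by that much. The median log2 fold change of the 9 members was -1.79, -0.96 and -1.37 in that order of groups, beside 0.02, 0.01 and -0.01 over all tested genes. Added over the 10 members, levels in CPM (a gene's counts scaled to the size of the library) were 223.7 ± 3.89 in ORP5/8 KD, 258.9 ± 9.78 in ATP11A/C KD cells and 283.6 ± 9.37 in CDC50A KD cells, against 481.8 ± 7.85 in Parental cells (SD, n = 4 each). Ccl9 made up 50.02% to 63.4% of this sum in each group, so the sum mostly follows Ccl9 and Ccl3. In bulk RNA, fewer expressing cells and less RNA per cell cannot be told apart.

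**Figure D1:**
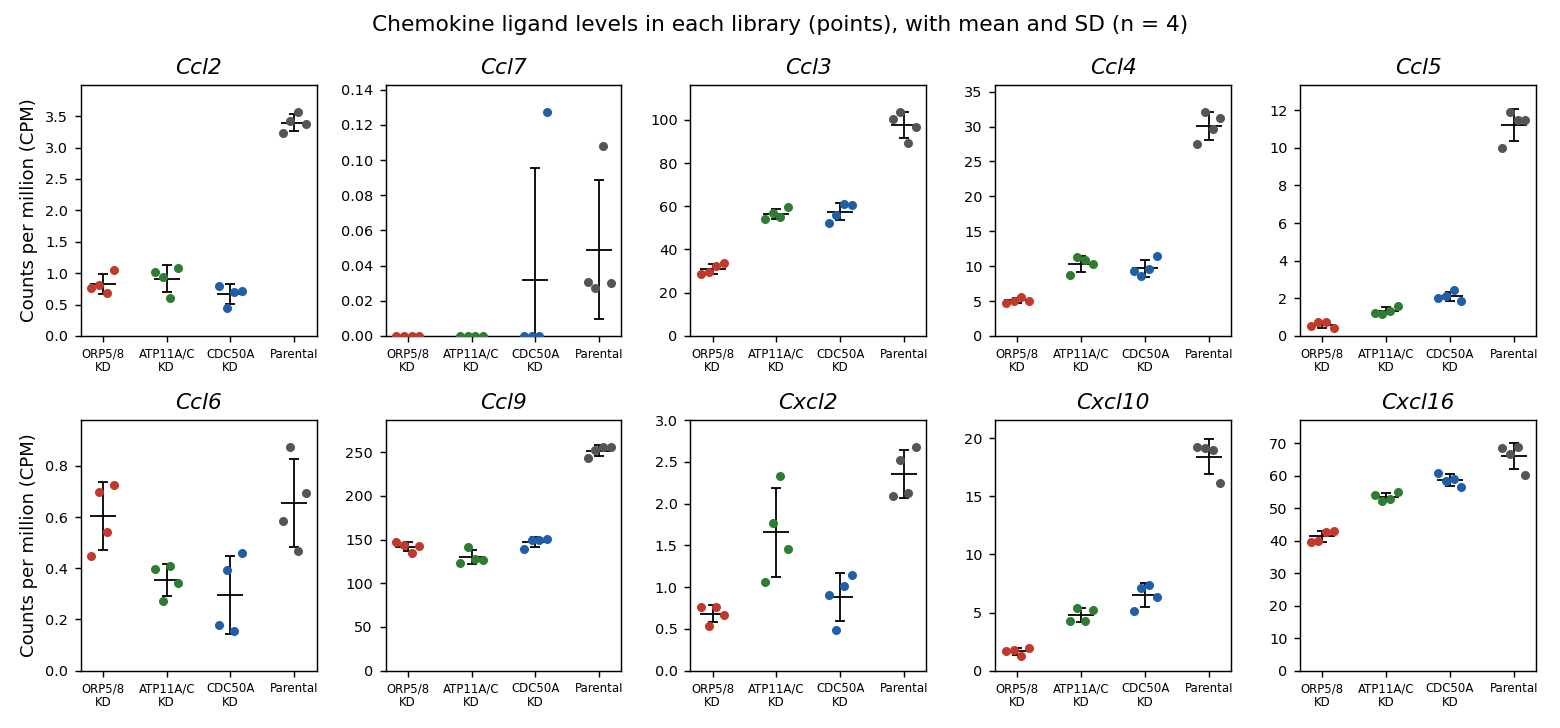
Level of each of the 10 ligands in CPM (vertical axes, a scale for each gene) in the 16 libraries, by group along the horizontal axis. Points are libraries and bars are the mean with its SD (n = 4). Ccl2, Ccl3, Ccl4, Ccl5, Ccl9 and Cxcl10 lie lower in every KD library than in every Parental library. The share of all tested genes that did so was not counted.

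Ccl2 and Ccl7 are monocyte attractants that act through CCR2, and their genes lie close together on chromosome 11. Ccl2 (ENSMUSG00000035385.5) lies at chr11:82035571-82037453 on the plus strand and Ccl7 (ENSMUSG00000035373.2) at chr11:82045712-82047525 on the same strand, in mm10 with GENCODE M21 annotation. Ccl2 stood at 0.762, 0.817, 0.688 and 1.05 CPM in the ORP5/8 KD libraries, 1.01, 0.931, 0.600 and 1.09 CPM in ATP11A/C KD, 0.798, 0.438, 0.705 and 0.714 CPM in CDC50A KD, and 3.23, 3.42, 3.57 and 3.38 CPM in Parental libraries. The highest KD library thus stayed well below the lowest Parental library, and the KD groups overlapped each other. The log2 fold change against Parental was -2.03 ± 0.193 (SE) in ORP5/8 KD (adjusted p = 1.73e-08), -1.91 ± 0.193 in ATP11A/C KD (adjusted p = 7.08e-08) and -2.32 ± 0.203 in CDC50A KD cells (adjusted p = 7.55e-09).

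Ccl2 was not separated between KD groups by the test. The log2 difference was -0.12 for ORP5/8 KD against ATP11A/C KD (95% interval -0.57 to 0.32), 0.28 for ORP5/8 KD against CDC50A KD (-0.18 to 0.75) and -0.41 for CDC50A KD against ATP11A/C KD (-0.87 to 0.06), intervals too wide to show that the groups were alike. Ccl7 was close to undetected. It had 0 counts in all 4 ORP5/8 KD and all 4 ATP11A/C KD libraries, 0, 0, 0 and 5 counts in the CDC50A KD libraries, and 1, 1, 3 and 1 counts in the Parental libraries. A count of 0 over a group allows up to 3 counts, or 0.0189 CPM in ORP5/8 KD and 0.0203 CPM in ATP11A/C KD cells, for counting error only. No fold change is given for Ccl7.

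Ccl3, Ccl4 and Ccl5 attract monocytes and T cells. Ccl5 had the largest fall of the 9 members in each KD group, followed closely by Ccl2 in CDC50A KD cells. Ccl5 (ENSMUSG00000035042.2, chr11:83525778-83530518, minus strand) stood at 0.4995, 0.747, 0.713 and 0.430 CPM in ORP5/8 KD, 1.24, 1.17, 1.32 and 1.61 CPM in ATP11A/C KD, 2.01, 2.10, 2.45 and 1.83 CPM in CDC50A KD, and 9.97, 11.9, 11.5 and 11.5 CPM in Parental libraries. No library of one group overlapped another group, so the 4 groups formed 4 separate steps with Parental cells highest and ORP5/8 KD cells lowest. Against Parental cells Ccl5 was 18.5-fold lower in ORP5/8 KD (log2 fold change -4.21 ± 0.153, adjusted p = 1.69e-15), 8.40-fold lower in ATP11A/C KD (-3.07 ± 0.139, adjusted p = 2.16e-13) and 5.35-fold lower in CDC50A KD cells (-2.42 ± 0.133, adjusted p = 4.43e-12). The steps between KD groups also passed the test. ORP5/8 KD cells were lower than ATP11A/C KD cells (log2 difference -1.14 ± 0.18, adjusted p = 3.15e-05) and lower than CDC50A KD cells (-1.79 ± 0.172, adjusted p = 2.22e-08), and CDC50A KD cells were higher than ATP11A/C KD cells by 0.65 ± 0.154 (adjusted p = 0.00419).

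Ccl3 and Ccl4, close together on chromosome 11, followed another order, in which only ORP5/8 KD stood apart among the KD groups. Ccl3 (ENSMUSG00000000982.5, chr11:83647844-83649355, minus strand) had 28.7, 29.5, 32.5 and 33.7 CPM in ORP5/8 KD, 54.2, 56.8, 54.8 and 59.8 CPM in ATP11A/C KD, 52.4, 56.1, 60.9 and 60.7 CPM in CDC50A KD, and 100.6, 103.7, 89.5 and 96.8 CPM in Parental libraries. Ccl4 (ENSMUSG00000018930.3, chr11:83662584-83664683, plus strand) had 4.76, 4.995, 5.604 and 5.05 CPM in ORP5/8 KD, 8.71, 11.4, 10.8 and 10.3 CPM in ATP11A/C KD, 9.27, 8.58, 9.56 and 11.4 CPM in CDC50A KD, and 27.5, 32.1, 29.6 and 31.2 CPM in Parental libraries. For both genes the ATP11A/C KD and CDC50A KD libraries overlapped each other, and neither overlapped ORP5/8 KD or Parental libraries.

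Relative to Parental cells Ccl3 fell to 31.8% in ORP5/8 KD, 57.8% in ATP11A/C KD cells and 58.9% in CDC50A KD cells (log2 fold changes of -1.65 ± 0.0616, -0.79 ± 0.0596 and -0.76 ± 0.0598, adjusted p = 2.63e-15, 7.07e-10 and 1.34e-09). Ccl4 fell to 17.0%, 34.2% and 32.2% in the same groups (log2 fold changes of -2.56 ± 0.0951, -1.55 ± 0.0895 and -1.63 ± 0.0906, adjusted p = 2.46e-15, 9.73e-12 and 5.72e-12). Both genes were lower in ORP5/8 KD than in each other KD group. Against ATP11A/C KD cells the log2 difference was -0.86 ± 0.0616 for Ccl3 (adjusted p = 3.79e-10) and -1.01 ± 0.0975 for Ccl4 (adjusted p = 3.72e-08), and against CDC50A KD cells -0.89 ± 0.0619 for Ccl3 (adjusted p = 1.48e-10) and -0.93 ± 0.0985 for Ccl4 (adjusted p = 9e-08). CDC50A KD against ATP11A/C KD differed by 0.03 for Ccl3 (95% interval -0.10 to 0.16) and -0.08 for Ccl4 (-0.27 to 0.12), neither called.

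Ccl6 and Ccl9, CC ligands of mouse that bind CCR1, lie between Ccl5 and Ccl3. Ccl9 (ENSMUSG00000019122.8, chr11:83572919-83578636, minus strand) was the ligand with the most counts in every group. It stood at 146.9, 143.2, 134.6 and 142.3 CPM in ORP5/8 KD, 123.0, 141.3, 128.0 and 126.1 CPM in ATP11A/C KD, 138.9, 149.6, 149.7 and 150.5 CPM in CDC50A KD, and 242.9, 252.4, 255.8 and 256.4 CPM in Parental libraries. All 12 KD libraries lay below all 4 Parental libraries by a wide gap, and the KD groups lay close together. The log2 fold change against Parental was -0.83 ± 0.0453 in ORP5/8 KD (adjusted p = 1.86e-12), -0.96 ± 0.0455 in ATP11A/C KD (adjusted p = 4.62e-13) and -0.78 ± 0.0454 in CDC50A KD cells (adjusted p = 1.29e-11).

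Ccl9 was an exception to the ORP5/8 KD order. It was not lower there than in ATP11A/C KD cells but higher by 0.13 ± 0.0453 on the log2 scale (adjusted p = 0.0277), a call that was lost in 7 of 15 alternatives, with an adjusted p from 0.0021 to 0.0685 over all 15. These were the fit of those 2 groups alone and the fits without ORP5/8 KD 1, 2 or 4 or without ATP11A/C KD 1, 3 or 4. ORP5/8 KD against CDC50A KD gave -0.05 (95% interval -0.15 to 0.04, not called), and CDC50A KD was higher than ATP11A/C KD by 0.18 ± 0.0455 (adjusted p = 0.00561).

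Ccl6 (ENSMUSG00000018927.3, chr11:83587882-83593087, minus strand) was expressed at trace level. It had 0.447, 0.7002, 0.541 and 0.725 CPM in ORP5/8 KD, 0.396, 0.270, 0.408 and 0.341 CPM in ATP11A/C KD, 0.1802, 0.394, 0.153 and 0.459 CPM in CDC50A KD, and 0.585, 0.876, 0.469 and 0.693 CPM in Parental libraries. These are 96, 53, 39 and 87 counts summed over the 4 libraries of each group, so counting error alone is large. ORP5/8 KD libraries overlapped Parental libraries, while the other KD groups lay just under them. The log2 fold change was -0.13 ± 0.301 in ORP5/8 KD (adjusted p = 0.747, 95% interval -0.76 to 0.49), -0.89 ± 0.325 in ATP11A/C KD (adjusted p = 0.0368) and -1.17 ± 0.342 in CDC50A KD cells (adjusted p = 0.00724). The ATP11A/C KD call was lost in 8 of 14 alternatives, with an adjusted p between 0.0276 and 0.144 over all 14. It was lost without any 1 of the ATP11A/C KD libraries and without Parental 1, 2 or 4, at 0.144 without Parental 2. Ccl6 was higher in ORP5/8 KD than in CDC50A KD cells by 1.04 ± 0.339 on the log2 scale (adjusted p = 0.013), a call lost without CDC50A KD 1 (0.0546) or 3 (0.0513) and with an adjusted p from 0.00336 to 0.0546 over 14 alternatives. The 0.75 difference between ORP5/8 KD and ATP11A/C KD cells was not called (adjusted p = 0.071).

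Cxcl10, the CXCR3 ligand known for its induction by interferon, was second to Ccl5 in the size of its fall in ORP5/8 KD cells. Cxcl10 (ENSMUSG00000034855.13, chr5:92346638-92348889, minus strand) had 1.68, 1.80, 1.25 and 1.99 CPM in ORP5/8 KD, 4.30, 5.41, 4.30 and 5.18 CPM in ATP11A/C KD, 5.15, 7.09, 7.41 and 6.37 CPM in CDC50A KD, and 19.3, 19.2, 19.0 and 16.2 CPM in Parental libraries. ORP5/8 KD libraries were below all others and Parental libraries above all others, with the other KD groups overlapping only slightly. Cxcl10 was 10.96-fold lower than Parental in ORP5/8 KD (log2 fold change -3.45 ± 0.135, adjusted p = 5.55e-15), 3.85-fold lower in ATP11A/C KD (-1.95 ± 0.120, adjusted p = 2.95e-11) and 2.85-fold lower in CDC50A KD cells (-1.51 ± 0.118, adjusted p = 1.25e-09). In ORP5/8 KD cells it was lower than in ATP11A/C KD cells (log2 difference -1.51 ± 0.143, adjusted p = 2.72e-08) and lower than in CDC50A KD cells (-1.95 ± 0.141, adjusted p = 2.7e-10). The 4 group means of Cxcl10 stood in the same order as those of Ccl5. CDC50A KD against ATP11A/C KD gave 0.44 ± 0.126 (adjusted p = 0.0142), which was lost without ATP11A/C KD 3 (0.0579) or CDC50A KD 3 (0.0663), within a range of 0.00423 to 0.0663 over 15 alternatives.

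Cxcl2, a neutrophil attractant that acts through CXCR2, had low counts and varied widely between libraries. Cxcl2 (ENSMUSG00000058427.10, chr5:90903871-90905938, plus strand) stood at 0.762, 0.537, 0.762 and 0.671 CPM in ORP5/8 KD, 1.06, 1.77, 2.33 and 1.46 CPM in ATP11A/C KD, 0.901, 0.482, 1.01 and 1.15 CPM in CDC50A KD, and 2.09, 2.52, 2.13 and 2.68 CPM in Parental libraries. ATP11A/C KD 3 reached into the Parental range, and no other KD library did. The log2 fold change against Parental was -1.79 ± 0.245 in ORP5/8 KD (adjusted p = 3.75e-06), -0.51 ± 0.224 in ATP11A/C KD (adjusted p = 0.0821, 95% interval -0.97 to -0.04, not called) and -1.37 ± 0.242 in CDC50A KD cells (adjusted p = 8.01e-05). Without ATP11A/C KD 3 the ATP11A/C KD value was -0.72 and was called (adjusted p = 0.0212, the lowest of 15 alternatives that ran up to 0.249). Cxcl2 in ORP5/8 KD cells was below ATP11A/C KD cells (log2 difference -1.28 ± 0.249, adjusted p = 0.000313). CDC50A KD cells too were below ATP11A/C KD cells (-0.86 ± 0.245, adjusted p = 0.0132), a call that was lost without ATP11A/C KD 3 (0.0761, range over 15 alternatives 0.00267 to 0.0761). ORP5/8 KD against CDC50A KD gave -0.41 (95% interval -0.97 to 0.14, not called).

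Cxcl16 differs from the other members in being made as a membrane-anchored protein. It is the ligand of CXCR6, is released by the proteases ADAM10 and ADAM17, and is also known as a scavenger receptor (SR-PSOX) that binds phosphatidylserine and oxidised lipoprotein. Cxcl16 (ENSMUSG00000018920.11, chr11:70453983-70459984, minus strand) had 39.7, 40.0, 42.8 and 42.9 CPM in ORP5/8 KD, 54.1, 52.2, 53.0 and 55.1 CPM in ATP11A/C KD, 60.9, 58.4, 58.9 and 56.6 CPM in CDC50A KD, and 68.6, 66.8, 69.0 and 60.1 CPM in Parental libraries. ORP5/8 KD and ATP11A/C KD libraries lay below every Parental library, and 1 CDC50A KD library lay above the lowest Parental library. Its falls were the smallest of the called ones in each comparison, at -0.68 ± 0.0474 in ORP5/8 KD (adjusted p = 1.31e-10), -0.30 ± 0.0470 in ATP11A/C KD (adjusted p = 2.66e-05) and -0.17 ± 0.0471 in CDC50A KD cells (adjusted p = 0.00459) on the log2 scale against Parental.

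Between KD groups Cxcl16 was again lowest in ORP5/8 KD cells. The log2 difference was -0.37 ± 0.0475 against ATP11A/C KD (adjusted p = 1.93e-06) and -0.51 ± 0.0476 against CDC50A KD cells (adjusted p = 1.66e-08). CDC50A KD against ATP11A/C KD gave 0.13 ± 0.0472 (adjusted p = 0.0446), a call kept in 1 of 15 alternatives (DESeq2's Wald test) and lost without any 1 library of either group, with an adjusted p from 0.0459 to 0.162. Zmynd15, which overlaps Cxcl16 on the opposite strand, stood at 3.40, 2.69, 2.38 and 3.11 CPM in ORP5/8 KD, ATP11A/C KD, CDC50A KD and Parental cells, far below Cxcl16. The libraries were made with a strand-specific kit.

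**Figure D2:**
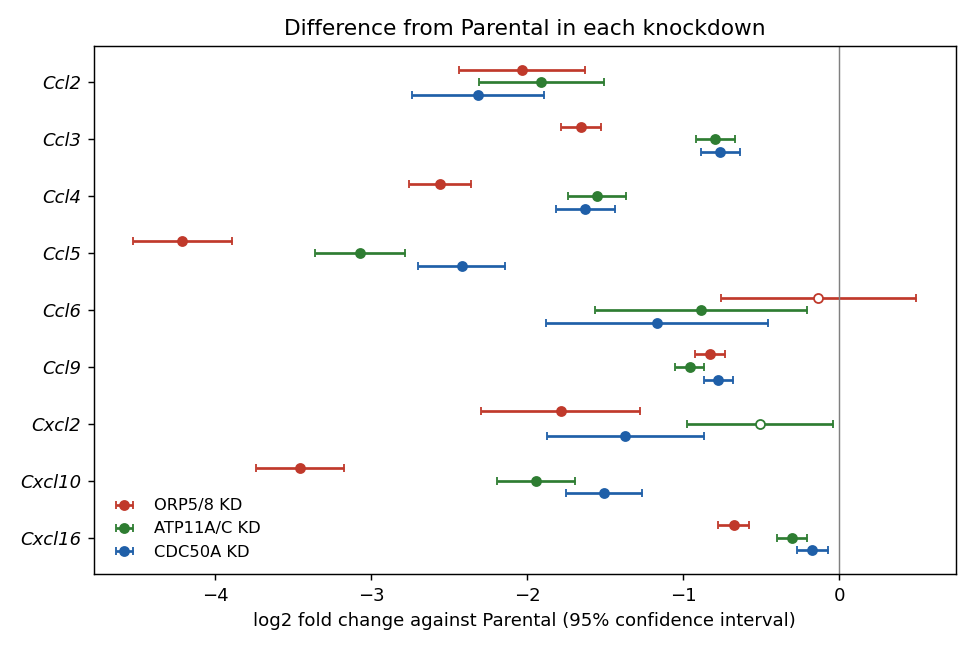
Log2 fold change against Parental (axis) of the 9 tested ligands in each KD group, with 95% intervals; open symbols mark values that were not called. Ccl5 and Cxcl10 in ORP5/8 KD cells lie farthest from 0, at -4.21 and -3.45, and Ccl6 in ORP5/8 KD and Cxcl2 in ATP11A/C KD cells are the values not called.

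Set directly against each other, the members called between ORP5/8 KD and another KD group were mostly lower in ORP5/8 KD cells. ORP5/8 KD against ATP11A/C KD cells gave 6 members lower and 1 higher, beside 38.7% of all tested genes called, with 20.4% lower and 18.2% higher. ORP5/8 KD against CDC50A KD cells gave 5 lower and 1 higher, beside 56.8% of all genes called, with 29.4% lower and 27.5% higher. CDC50A KD against ATP11A/C KD cells gave 1 lower and 4 higher, beside 26.2% of all genes called, with 12.7% lower and 13.5% higher. That count of 5 was 2 without ATP11A/C KD 3 and 3 without CDC50A KD 3. Under upper-quartile scaling the lower calls made up 36.7% of all gene calls, in place of 52.5%, in ORP5/8 KD against Parental cells, 39.5% in place of 52.8% in ORP5/8 KD against ATP11A/C KD cells and 39.3% in place of 51.6% in ORP5/8 KD against CDC50A KD cells. The member counts kept to 8, 6 to 7 and 5 to 6 calls over all alternatives of these 3 comparisons.

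By CPM Ccl9 led in every group, and only per kilobase of transcript did the leading ligand differ between groups. That level rests on annotated lengths, 3006 bases for Ccl9 and 766 bases for Ccl3. Which transcripts the cells expressed was not examined. Per kilobase of the longest coding transcript, the Parental order was Ccl3 (127.5 CPM per kb), Ccl9 (83.8), Ccl4 (45.6), Cxcl16 (24.5), Ccl5 (21.1), Cxcl10 (13.6), Ccl2 (4.18), Cxcl2 (1.27), Ccl6 (0.455) and Ccl7 (0.0613). Only the neighbours Cxcl16 and Ccl5 overlapped in that order. In ORP5/8 KD cells Ccl9 led at 47.2 CPM per kb and Ccl3 followed at 40.6, without overlap of their libraries, and Cxcl16 stood above Ccl4 at 15.3 against 7.73. Below them Cxcl10 (1.24), Ccl5 (1.123) and Ccl2 (1.02) overlapped in sequence, as did Ccl6 (0.419) and Cxcl2 (0.368).

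ATP11A/C KD and CDC50A KD cells kept Ccl3 first and Ccl9 second but, as in ORP5/8 KD cells, had Cxcl16 above Ccl4. In ATP11A/C KD cells Ccl3 stood at 73.6, Ccl9 at 43.1, Cxcl16 at 19.9 and Ccl4 at 15.6 CPM per kb, followed by Cxcl10 (3.54), Ccl5 (2.51), Ccl2 (1.117), Cxcl2 (0.891) and Ccl6 (0.246), with overlap only of Ccl2 and Cxcl2. In CDC50A KD cells Ccl3 stood at 75.1, Ccl9 at 49.0, Cxcl16 at 21.8 and Ccl4 at 14.7 CPM per kb, and Cxcl10 (4.81) overlapped Ccl5 (3.94), while Ccl2, Cxcl2, Ccl6 and Ccl7 overlapped in sequence.

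**Figure D3:**
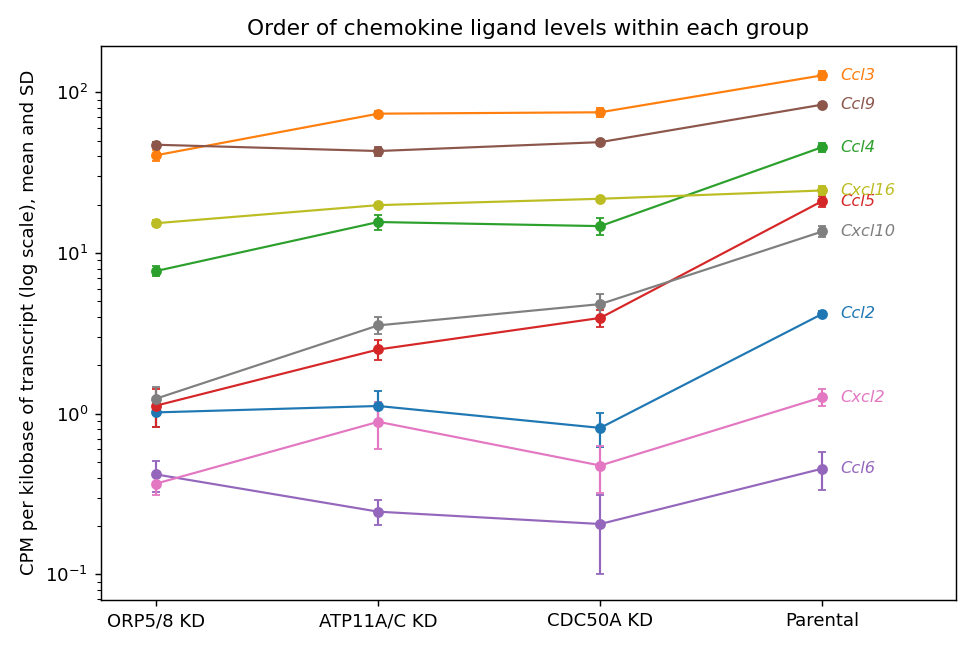
Mean level per kilobase of transcript (log axis, CPM per kb, with SD over 4 libraries) of 9 ligands across the 4 groups; Ccl7 is left out. Ccl9 (47.2) lies above Ccl3 (40.6) in ORP5/8 KD cells, and Cxcl16 lies above Ccl4 in all KD groups, in both cases the reverse of Parental cells. Lines join the same gene across groups and stand for no trend.

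Ccl5, Ccl9, Ccl6, Ccl3 and Ccl4 lie in this order within 138.9 kb of chromosome 11, and they were the only 5 tested genes in that interval. Their falls were not graded by position. In ORP5/8 KD cells the ends of the interval held the largest falls, -4.21 at Ccl5 and -2.56 at Ccl4, and the least changed genes, Ccl9 (-0.83) and Ccl6 (-0.13, not called), lay 47.1 and 62.1 kb from the lower end of Ccl5. The same genes held the ends in the other KD groups, with -3.07 and -1.55 in ATP11A/C KD and -2.42 and -1.63 in CDC50A KD cells.

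**Figure D4:**
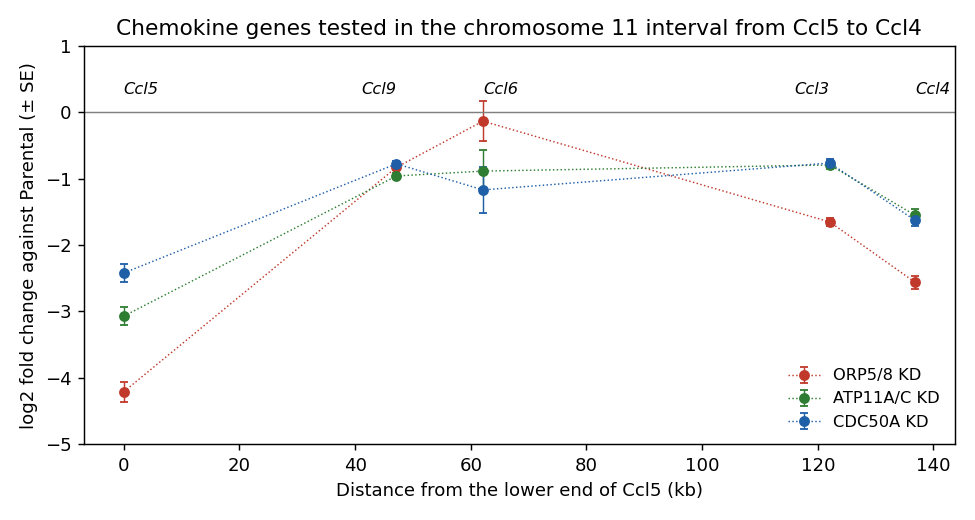
Log2 fold change against Parental, with its SE, of the 5 tested genes of the chromosome 11 interval, by distance in kb from the lower end of Ccl5, in each KD group. Dotted lines only guide the eye. Ccl5 at 0 kb and Ccl4 at 136.8 kb fell more than Ccl9 at 47.1 kb and Ccl3 at 122.1 kb in each KD group.

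Of 31 other mouse chemokine ligand genes looked up, 19 had 0 counts in every library, 9 had counts but failed the filter, and 3 were tested. Cxcl11, a CXCR3 ligand beside Cxcl10 on chromosome 5 that the file types as a polymorphic pseudogene, followed Cxcl10. It had 0, 0, 6 and 1 counts in ORP5/8 KD, 31, 7, 26 and 22 counts in ATP11A/C KD libraries, 21, 9, 23 and 32 in CDC50A KD, and 45, 45, 36 and 58 in Parental libraries. The ORP5/8 KD libraries were lowest and the Parental libraries highest, without overlap of either with another group. The log2 fold changes against Parental were -4.90 ± 0.539 (adjusted p = 1.62e-07), -1.29 ± 0.363 (adjusted p = 0.00776) and -1.17 ± 0.365 (adjusted p = 0.0109).

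Cxcl14 and Ccl25 did not follow the members. Cxcl14, a ligand of epithelia and other tissues, had 8.93, 7.05, 9.13 and 7.19 CPM in CDC50A KD libraries and 3.42, 2.55, 3.06 and 2.53 CPM in Parental libraries, a rise of 1.49 ± 0.120 on the log2 scale (adjusted p = 2.01e-09). All CDC50A KD libraries exceeded all libraries of the other groups. The Cxcl14 value in ATP11A/C KD cells was 0.34 (adjusted p = 0.035, lost in 6 of 15 alternatives with a range of 0.0105 to 0.112, among them those without ATP11A/C KD 1 or 2 or Parental 2 or 4) and in ORP5/8 KD cells 0.20 (adjusted p = 0.201, not called). Ccl25, a CCR9 ligand, was higher in ORP5/8 KD than in Parental cells by 0.40 ± 0.129 (adjusted p = 0.0136), at 3.18 and 2.42 CPM. With these 3 genes the ligand list had 12 tested genes, 9 of them the members, so its counts mostly repeat theirs. Against Parental cells, 9 of the 12 were lower and 1 higher in ORP5/8 KD, beside 24.3% and 22.0% of all tested genes. In ATP11A/C KD cells 9 were lower and 1 higher, beside 20.2% and 17.4% of all tested genes. In CDC50A KD cells 10 were lower and 1 higher, beside 26.1% and 24.3%.

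Receptors that bind these ligands were sparse, and some of them were lower in the KD groups. Of 24 receptor genes 8 were tested, with 4 lower and 1 higher in ORP5/8 KD, 3 lower and 1 higher in ATP11A/C KD, and 5 lower and 1 higher in CDC50A KD cells. The calls, 5 of 8, 4 of 8 and 6 of 8, stood beside 46.2%, 37.6% and 50.4% of all tested genes. Ccr1, the receptor of Ccl3, Ccl5, Ccl6 and Ccl9, averaged 0.403, 0.141 and 0.134 CPM in ORP5/8 KD cells, ATP11A/C KD cells and CDC50A KD cells, against 1.04 CPM in Parental cells (log2 fold changes of -1.34, -2.89 and -2.98, adjusted p = 0.00252, 7.15e-06 and 5.76e-06). Ccr2, the receptor of Ccl2 and Ccl7, averaged 2.30, 2.23 and 1.79 CPM in the same KD groups, against 3.34 CPM in Parental cells (-0.54, -0.59 and -0.88, adjusted p = 0.00314, 0.00206 and 3.52e-05). Ccrl2, an atypical receptor that does not signal for migration, also fell, with log2 fold changes of -1.70, -1.90 and -1.45 (adjusted p = 4.3e-08, 1.8e-08 and 5.92e-07). Cxcr3, the receptor of Cxcl10, gave 0.30 (adjusted p = 0.12, not called) in ORP5/8 KD, 0.27 (adjusted p = 0.193, not called) in ATP11A/C KD cells and -0.46 (adjusted p = 0.0263) in CDC50A KD cells. Cx3cr1, the receptor of Cx3cl1 and the most abundant of the tested receptors by CPM, averaged 455.3, 765.6 and 785.9 CPM in the same KD groups, against 581.2 CPM in Parental cells (-0.35, 0.40 and 0.44, adjusted p = 7.48e-07, 1.94e-07 and 4.66e-08). Cxcr4, the receptor of Cxcl12, was higher in ORP5/8 KD cells, at 17.9 CPM, against 2.08 CPM in Parental cells (3.10 ± 0.165, adjusted p = 1.19e-12), beside -0.16 (adjusted p = 0.549, not called) in ATP11A/C KD and -0.996 (adjusted p = 0.000592) in CDC50A KD cells. The receptors Cxcr2 and Cxcr6, named for their ligands among the members after their values were seen, had at most 2 counts summed over a group and were not tested.

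Regulators of the interferon pathway, which act upstream of Cxcl10 and Ccl5, were more often lower than higher in each KD group. Of 27 listed genes 24 were tested, with 17 lower and 3 higher in ORP5/8 KD (median log2 fold change -0.31), 15 lower and 4 higher in ATP11A/C KD (-0.21) and 12 lower and 4 higher in CDC50A KD cells (-0.16), beside the shares of all genes given above. Irf7, an interferon-induced transcription factor, averaged 43.9 CPM in ORP5/8 KD, 248.8 CPM in ATP11A/C KD and 347.5 CPM in CDC50A KD cells, against 632.0 CPM in Parental cells. Its log2 fold changes were -3.85, -1.34 and -0.86 (adjusted p = 5.53e-20, 3.07e-13 and 2.91e-10), the same order of groups as in Ccl5 and Cxcl10. Tmem173, the gene of STING, was higher in all 3, with 0.17, 0.49 and 0.84 on the log2 scale (adjusted p = 0.015, 3.43e-07 and 6.88e-11).

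Among NF-kB and AP-1 regulators, 38 of 39 listed genes were tested, with 20 lower and 3 higher in ORP5/8 KD (median log2 fold change -0.23), 13 lower and 6 higher in ATP11A/C KD (-0.09) and 12 lower and 6 higher in CDC50A KD cells (-0.03). The calls, 23, 19 and 18 of 38, stood beside 46.2%, 37.6% and 50.4% of all tested genes. Nfkbia and Relb were called in ORP5/8 KD cells and not in the other KD groups. Nfkbia, the NF-kB-induced inhibitor of NF-kB, averaged 52.1, 85.1 and 86.7 CPM in ORP5/8 KD cells, ATP11A/C KD cells and CDC50A KD cells, against 85.7 CPM in Parental cells (-0.72, -0.01 and 0.02, adjusted p = 7.59e-11, 0.906 and 0.774). Relb, an NF-kB subunit, gave -1.19, -0.10 and -0.12 (adjusted p = 1.64e-10, 0.359 and 0.215). Tnf, a cytokine induced by NF-kB, averaged 19.9, 59.1 and 51.8 CPM, against 65.7 CPM in Parental cells (-1.72, -0.15 and -0.34, adjusted p = 5.25e-14, 0.101 and 0.000506). Atf3, an AP-1 family repressor, had its largest fall in CDC50A KD cells (-0.57, -0.90 and -1.13, adjusted p = 2.3e-09, 3.37e-12 and 1.25e-13), and Fos, a subunit of AP-1, in ORP5/8 KD cells (-1.63, -0.53 and -0.38, adjusted p = 2.41e-13, 8.92e-06 and 0.000297).

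Genes of mRNA decay and ligand processing were mixed. Of 13 tested among 14 listed, 4 were lower and 3 higher in ORP5/8 KD (median -0.06), 5 lower and 3 higher in ATP11A/C KD (0.00) and 4 lower and 5 higher in CDC50A KD cells (0.06), beside the same shares of all genes. Adam17, a sheddase of Cxcl16, averaged 140.2, 233.5 and 248.8 CPM in these KD groups, against 273.5 CPM in Parental cells (-0.96, -0.23 and -0.14, adjusted p = 2.81e-13, 0.000525 and 0.0191). Adam10, the other sheddase, gave 0.06 (adjusted p = 0.316, not called), -0.23 (adjusted p = 0.000932) and 0.21 (adjusted p = 0.00133). Zfp36, whose protein destabilises AU-rich chemokine and cytokine mRNAs, was lower in ORP5/8 KD (-0.66, adjusted p = 9.47e-08) and higher in ATP11A/C KD (0.24, adjusted p = 0.00947) and CDC50A KD cells (0.37, adjusted p = 0.000139). Sdc4, a heparan sulfate proteoglycan of the kind that holds chemokines at the cell surface, was lower in each (-1.33, -0.52 and -0.19, adjusted p = 2.92e-13, 1.27e-06 and 0.0142).

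**Figure D5:**
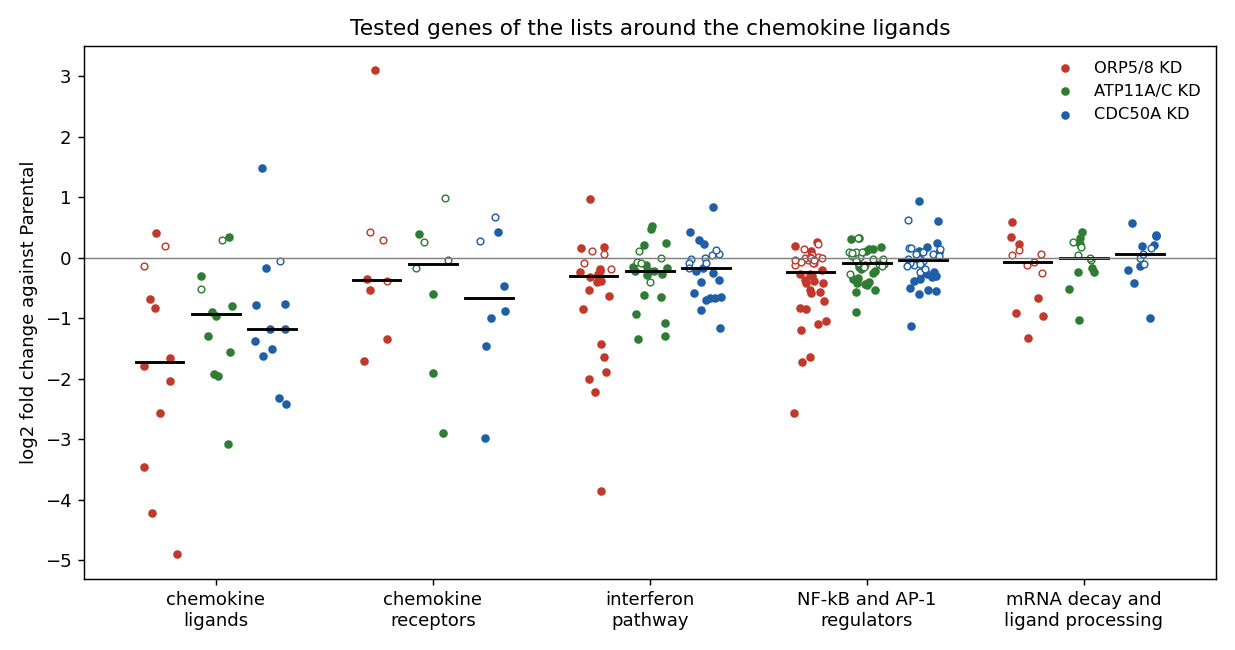
Log2 fold change against Parental (axis) of each tested gene of 5 lists in the 3 KD groups; filled points were called, open points were not, and the black line is the list's median. The ligand list has the lowest medians, -1.72, -0.92 and -1.17, and the decay and processing list lies around 0. Of the 12 tested ligands 9 are the members, chosen with earlier results of these data known, so this ranking is no independent result. Among the other tested ligands Cxcl11 fell, while Cxcl14 and Ccl25 did not.

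The genes whose 3 fold changes lay nearest to those of a member were found among 8748 genes by the root-mean-square difference over the 3 log2 fold changes against Parental, which share the Parental libraries. Nearest to Ccl5 were Ifit3 (0.312), Ifi211 (0.319) and Acod1 (0.337), and nearest to Cxcl10 were Tmem26 (0.0941), Gbp7 (0.18) and Gbp9 (0.181). Nearest to Ccl3 were Trafd1 (0.0329), Parp12 (0.0717) and Parp11 (0.0919), and nearest to Ccl4 were Pcdh7 (0.125), Ddx60 (0.144) and Dusp4 (0.232). Ifit3, Gbp7, Gbp9 and Parp12 are known as interferon-induced genes. The share of such genes among the 8748 was not counted, and a link of the ligands to interferon was not tested. For the rest, the nearest gene was Kitl for Ccl2 (0.212), Steap3 for Ccl6 (0.0494), Agpat4 for Ccl9 (0.0753) and Hmga2 for Cxcl2 (0.232), while Clic4 and Nab2 were level for Cxcl16 (0.0393 each).

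Macrophage markers moved as well. Of 8 markers 7 were tested, and their summed level was 7110 to 7532 CPM in ORP5/8 KD, 5911 to 6289 CPM in ATP11A/C KD and 6906 to 7209 CPM in CDC50A KD libraries, against 11110 to 11840 CPM in Parental libraries. By mean level, Lyz2, Cd14, Cd68, Itgam and Fcgr1 lay below Parental cells in all 3 KD groups. The share of all tested genes that did so was not counted, and the 3 KD groups are set against the same Parental libraries. Lyz2, the lysozyme gene and the most abundant marker, averaged 4168, 2582 and 2859 CPM in the KD groups, against 7207 CPM in Parental cells. The fall of the summed level thus mostly follows Lyz2. Cd14, a co-receptor for lipopolysaccharide, averaged 621.9, 738.8 and 884.1 CPM, against 1048 CPM in Parental cells. Cd68, a lysosomal glycoprotein, averaged 772.8, 725.9 and 762.4 CPM, against 938.3 CPM in Parental cells. Itgam, the gene of CD11b, was at 112.1, 122.1 and 139.0 CPM, against 177.0 CPM in Parental cells, and Fcgr1, an Fc receptor, at 79.4, 119.6 and 153.1 CPM, against 160.3 CPM in Parental cells. The 2 other tested markers did not share this order. Adgre1, the gene of F4/80, averaged 77.7, 104 and 95.2 CPM, against 67.3 CPM in Parental cells. Csf1r, the receptor that macrophages need to survive, averaged 1537, 1699 and 2124 CPM, against 1872 CPM in Parental cells. The part of macrophage state, and of the mitochondrial share given above, in the ligands' fall was not tested. Markers of mast cells and epithelium were at 0 in every library, those of lymphocytes, neutrophils and fibroblasts summed to at most 0.526 CPM with 3 of 5, 3 of 5 and 4 of 5 markers at 0, and those of endothelium to at most 0.712 CPM. The 4 dendritic cell markers, with Flt3 at 0, summed to 1.87 to 2.93 CPM in ORP5/8 KD, 3.17 to 3.82 CPM in ATP11A/C KD and 2.28 to 2.68 CPM in CDC50A KD libraries, against 1.62 to 2.43 CPM in Parental libraries.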

How the data were processed

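Poly(A) RNA libraries were made from 500 ng of total RNA with a stranded kit and read as 100 bp paired ends, per the labels. Per the submitters' processing notes, tools included Trim Galore 0.5.0, STAR 2.7.5a, Picard and RSEM with mm10. The annotation release is not given in the sources used here. The deposited values are expected counts per gene from RSEM, of which 4.64% carry decimals, and they were rounded to whole counts. Spike-in records held 0 counts and were left out.

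Genes were kept by filterByExpr (minimum count 10), which left 99.97% of counts. Libraries were scaled by TMM, and the 4 groups of the labels were fitted together with edgeR 4.0.16 (R 4.3.3) by the quasi-likelihood test, with Benjamini-Hochberg adjustment within each comparison (biological coefficient of variation 6.86%). Levels are CPM after TMM scaling. Positions and lengths came from GENCODE M21. No 2 libraries agreed within sampling noise. The scripts were tested on simulated data. The alternatives were DESeq2 1.42.0 (size factors and Wald test), upper-quartile scaling, other filters, a replicate block, fits of 2 groups only and leaving out each library. Members and lists were chosen with earlier results of these data known. The rule for other names took every tested ligand, up to 6 called genes per list and comparison by smallest adjusted p, and the 3 genes nearest to each member, among genes with at least 10 CPM in a group. Results of some genes withheld for evaluation are not reported here.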

Additional observations from a re-analysis of the deposited data

Results flagged for a closer look

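In 38 groups of 4 libraries, the highest and lowest library were compared with the rest by Dixon's 95% criterion, which chance passes in about 1 of 20 groups, and 4 groups passed. Ccl7 reached 0.127 CPM in CDC50A KD 4 while the other CDC50A KD libraries had 0 counts. It also reached 0.108 CPM in Parental 3, where the count was 3 and the other Parental libraries had 1 each. The rate of 1 in 20 does not hold for such low, tied counts. Ccl9 was lowest at 138.9 CPM in CDC50A KD 1, with 149.6 to 150.5 CPM in the other CDC50A KD libraries. Cxcl10 was lowest at 16.2 CPM in Parental 4, with 19.0 to 19.3 CPM in the other Parental libraries.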

How the results depend on the processing

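Of 402 recomputed fold changes of the members against Parental 10 changed side of the threshold or sign, and of 402 between KD groups 29 did. The number of members called was 8 in ORP5/8 KD, 7 to 8 in ATP11A/C KD and 8 to 9 in CDC50A KD against Parental cells over all alternatives, from 6 to 7 in ORP5/8 KD against ATP11A/C KD, from 5 to 6 in ORP5/8 KD against CDC50A KD and from 2 to 5 in CDC50A KD against ATP11A/C KD cells (2 to 4 when 1 library was left out). Signs changed for these values, none of them called either way: Ccl9 in ORP5/8 KD against CDC50A KD under upper-quartile scaling (0.014), and, with 1 library left out, Ccl6 in ORP5/8 KD against Parental (-0.25 to 0.059, positive without Parental 2), Ccl3 in CDC50A KD against ATP11A/C KD (-0.0080 to 0.064, negative without CDC50A KD 3 or 4), Cxcl11 in the same comparison (-0.15 to 0.29, negative without ATP11A/C KD 2 or CDC50A KD 4) and Ccl25 in CDC50A KD against Parental (-0.10 to 0.065, positive without Parental 3). The cause was not tested. Replicate numbers did not pair the libraries: over 24 same-number pairs the correlation of deviations ran from -0.166 to 0.105, and the own number was best in 7. With a replicate block 8, 8 and 9 members were called against Parental, 7 and 6 in ORP5/8 KD against ATP11A/C KD and CDC50A KD, and 4 in CDC50A KD against ATP11A/C KD cells, with 5961, 4810, 6484, 4919, 7370 and 3361 of all genes in the same order. Ccl6 did not pass the filter of 1 CPM in 4 libraries, so that setting gave no value for it. Counts summed over a group were lowest at 92, 96, 39, 0, 108 and 7 for Ccl2, Ccl5, Ccl6, Ccl7, Cxcl2 and Cxcl11, which limits the precision of their values.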

Other observations

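Pf4, a platelet-type CXC ligand that failed the filter on low counts, had 4, 6, 0 and 4 counts in ORP5/8 KD, 6, 4, 9 and 5 counts in ATP11A/C KD libraries, 4, 0, 1 and 2 in CDC50A KD, and 7, 16, 21 and 11 in Parental libraries. No fold change was tested for it. It was singled out after its counts were seen.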
